A study of Rattus norvegicus with 16 samples.

Results

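The genes described here are 10 members of the Toll-like receptor system of the rat: Tlr1, Tlr2, Tlr3, Tlr4, Tlr5, Tlr6, Tlr7, Tlr9, the adaptor Myd88 and the co-receptor Ly96 (MD-2). The list of genes was chosen with earlier results of these data known. The probes were taken by name alone: each non-control probe whose gene name in the scanner files equalled a member was taken. Of the 10 genes, 9 had a probe, among 26583 gene names of the array, with 11 of its 30367 probes, and Tlr1 had none under that name. After the filter for signal over background, 10 probes of 8 genes were tested among 22827, and Tlr9 was left as a description.

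Toll-like receptors are membrane proteins of the innate immune system that bind molecules of microbes and of damaged cells. TLR2, with TLR1 or TLR6 as partner, binds lipoproteins, TLR4 with MD-2 binds lipopolysaccharide, and TLR5 binds flagellin, all at the cell surface, while TLR3, TLR7 and TLR9 sense nucleic acids in endosomes. Each carries a cytoplasmic TIR domain that recruits an adaptor. MyD88 is the adaptor of all of these receptors except TLR3, and it leads to NF-kappa B and inflammatory cytokines. In the brain these genes are expressed mainly by microglia and by leukocytes that enter from the blood.

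RNA from the whole hippocampus of adult male Sprague-Dawley rats, collected 24 h after injury, was measured on 16 single-colour Agilent arrays, each from 1 rat. The Naive rats (3 arrays) had neither surgery nor handling, the Sham rats (2 arrays) were anaesthetised and prepared but not injured, and the TBI rats (3 arrays) received a severe fluid percussion injury, a pressure pulse on the exposed dura. The other groups received the same injury and then a drug: PMI-006 by gavage (TBI+PMI, 3 arrays), JM6, a compound directed at the kynurenine pathway, by gavage (TBI+JM6, 3 arrays), or estradiol by injection (TBI+E33, 2 arrays). Strain, sex and tissue were shared by all groups.

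The arrays lay on 4 slides that were scanned in 2 sessions. The Naive, Sham and TBI arrays made up the first session, with 16282 to 18245 probes well above background, and all 8 drug arrays the later one, with 20259 to 24984. Drug treatment and session cannot be told apart. Values below are scaled log2 signals, which are 0 at the 75th percentile of the probes well above background on the same array, so that they order arrays for 1 probe and not genes against each other. In TBI+PMI, TBI+JM6 and TBI+E33 the median difference of all tested probes from TBI was 0.79, 0.99 and 1.08. The share of all probes with drug arrays above every TBI array was not computed, so such counts below are descriptions. The labelled tissue was checked with marker lists: all 8 microglia markers were above background on every array, and 3 or 4 of 4 general neuron markers. The summed signal of 4 choroid plexus markers, in multiples of the array's 75th percentile, was 76.4 on Naive replicate 2, 121 on Sham replicate 1 and 150 on PMI replicate 1, and from 0.184 to 7.54 elsewhere.

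The probes of the receptors with the clearest reading of the protein are shown first, because they say which part of each receptor was measured. Tlr2 (rn4 chr2:175608160-175608217, minus strand) and Tlr6 (chr14:46100547-46100606, plus strand) are related receptors, and both probes lie in the code of the TIR domain. The capitals mark the codons for phenylalanine and tryptophan of its box 3. The Tlr2 run is the first 50 of 60 probe bases and ends with the stop codon.
Tlr2: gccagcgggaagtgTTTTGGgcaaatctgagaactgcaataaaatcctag
Tlr6: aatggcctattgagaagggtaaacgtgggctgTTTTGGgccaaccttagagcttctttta
Over 42 aligned bases the probes were identical at 27 (64.3%), and the longest identical run was 10 bases, so that Tlr2 and Tlr6 were read by different sequences. The Tlr6 probe was not compared with the sequence of Tlr1, which had no probe.

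The Tlr7 probe (chrX:47356167-47356226, plus strand) lies at box 1 of the TIR domain, and the capitals mark the codons for tyrosine, aspartate, alanine and phenylalanine. The Tlr5 probe (chr13:99028987-99029046, plus strand) is shown because Tlr5 was called higher in every drug group under both scalings used here, and it has no capitals.
Tlr7: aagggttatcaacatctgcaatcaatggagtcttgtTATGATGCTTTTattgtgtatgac
Tlr5: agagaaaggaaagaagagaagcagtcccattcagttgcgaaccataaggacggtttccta
The other positions on rn4 were chr16:50126045-50126104 for Tlr3, chr5:83577410-83577469 for Tlr4, chr8:124299763-124299822 for Myd88, and chr5:1701973-1702032 for the brighter Ly96 probe. No rn4 annotation was used here, so exons and UTRs are not given.

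Tlr2, the receptor for bacterial lipoproteins, was above background on all 16 arrays. Its Naive arrays gave -2.41, -2.01 and -2.33, and its Sham arrays -2.44 and -2.54. The TBI arrays gave -2.36, -0.96 and -1.18. TBI replicate 1 was therefore at the level of uninjured tissue, while TBI replicates 2 and 3 lay above every Naive and Sham array. In the drug groups the levels were -1.23, -0.66 and -1.15 (TBI+PMI), -0.66, -0.55 and -0.61 (TBI+JM6), and -0.83 and -0.63 (TBI+E33). The 3 JM6 arrays were the closest to each other, with an SD of 0.06 against 0.75 in the TBI group.

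Tlr6, the partner of TLR2 for diacylated lipoproteins, was also above background on all 16 arrays. Its levels were -2.67, -2.23 and -2.60 in Naive, -2.94 and -2.05 in Sham, and -2.41, -1.62 and -1.51 in TBI. TBI replicate 1 again lay among the uninjured arrays, and TBI replicates 2 and 3 lay above them all. The drug arrays ranged from -1.94 to -1.28, and 5 of the 8 lay above every TBI array.

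Tlr4, the receptor for lipopolysaccharide and for several molecules released by damaged cells, was near the limit of detection without injury. It was well above background on Naive replicate 2 but on neither other Naive array and on no Sham array, whereas all 3 TBI and all 8 drug arrays measured it. The Naive arrays gave -6.55, -5.86 and -7.13, the Sham arrays -7.22 and -6.59, and the TBI arrays -5.72, -4.53 and -4.95. All 3 TBI arrays lay above every Naive and Sham array. The drug arrays gave -4.59, -3.88 and -4.47 (TBI+PMI), -4.00, -3.63 and -3.11 (TBI+JM6), and -3.53 and -3.59 (TBI+E33), and 7 of these 8 lay above every TBI array.

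Ly96, which holds the lipid of lipopolysaccharide against TLR4, gave -4.20, -3.44 and -4.06 in Naive, -3.91 and -3.47 in Sham, and -3.72, -2.37 and -2.87 in TBI. The TBI and uninjured groups overlapped through TBI replicate 1 alone. The drug arrays lay between -2.46 and -1.90, and 7 of 8 were above every TBI array. The other Ly96 probe (chr5:1705212-1705271) gave -3.49, -2.45 and -2.79 in TBI against -3.55 and -3.28 in Sham, with the same low TBI replicate 1. On the drug arrays it read from -3.13 to -2.31, which overlapped the TBI arrays.

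Myd88, the shared adaptor, was above background on all 16 arrays. Its levels were -1.82, -1.52 and -1.73 in Naive, -1.49 and -1.33 in Sham, and -0.83, -0.10 and -0.83 in TBI, without overlap between injured and uninjured arrays. The drug arrays ranged from -0.56 to 0.49, with means of -0.17 (TBI+PMI), 0.23 (TBI+JM6) and 0.19 (TBI+E33).

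Among the receptors for nucleic acids, Tlr7, the sensor of single-stranded RNA, was above background on 15 arrays and missed on Naive replicate 1. It gave -5.48, -4.31 and -4.55 in Naive, -4.63 and -3.93 in Sham, and -3.77, -3.57 and -3.15 in TBI, so that all 3 TBI arrays lay above the uninjured arrays. All 8 drug arrays, from -2.95 to -2.13, lay above every TBI array. Relative to the median of all tested probes, the Tlr7 differences from TBI were -0.06 (TBI+PMI), -0.13 (TBI+JM6) and 0.16 (TBI+E33).

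Tlr3, the sensor of RNA duplexes, had a different pattern. It gave -4.17, -3.67 and -3.81 in Naive, -4.86 and -4.37 in Sham, and -3.70, -4.19 and -3.86 in TBI. The TBI arrays lay above the Sham arrays and overlapped the Naive arrays. The PMI arrays were split, with -2.53 and -2.74 for replicates 1 and 2 and -4.19 for replicate 3, while the JM6 arrays gave -3.77, -3.78 and -4.35 and the E33 arrays -3.26 and -3.15. The other Tlr3 probe (chr16:50126271-50126330) showed the same split in the PMI group, with -2.73, -2.77 and -4.25.

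Tlr5, the flagellin receptor, was above background on Naive replicate 2 and on no other array of the first session, and it was above background on all 8 drug arrays. Its Naive arrays gave -7.67, -5.81 and -6.31, its Sham arrays -8.23 and -7.05, and its TBI arrays -7.89, -6.70 and -7.45. The drug arrays gave -3.10, -3.79 and -3.95 (TBI+PMI), -4.08, -3.69 and -3.25 (TBI+JM6), and -3.57 and -3.39 (TBI+E33), all above every array of the first session. On the 3 arrays with high choroid plexus markers, Naive replicate 2, Sham replicate 1 and PMI replicate 1, Tlr5 read -5.81, -8.23 and -3.10, and the part of choroid plexus tissue was not tested. Tlr9, the sensor of unmethylated CpG DNA, was not well above background on any of the 16 arrays, where its signal read from -8.49 to -8.00.

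**Figure D1:**
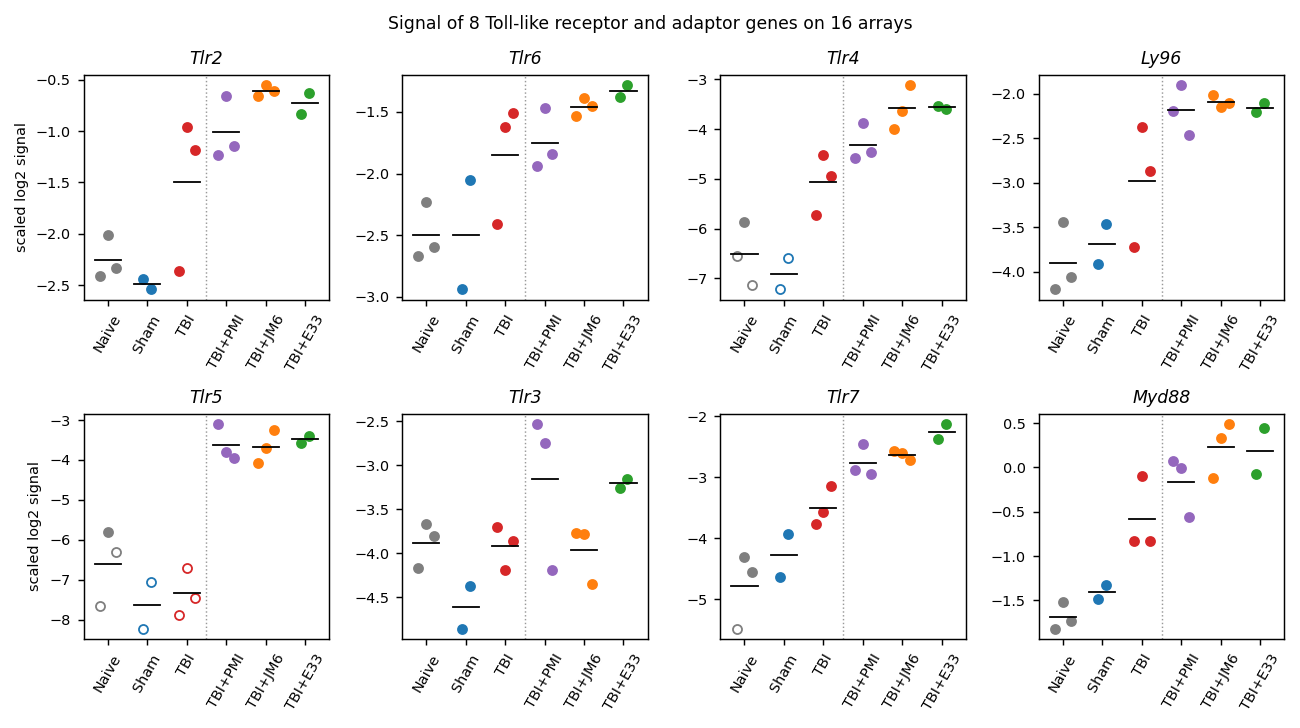
Scaled log2 signal (0 is the 75th percentile of the probes well above background on an array) of the members by group, with 1 point an array, open where not well above background, a line at each group mean and a dotted line between the scanning sessions. Tlr4 was measured on all 3 TBI arrays and on neither Sham array, Tlr5 was measured on all 8 drug arrays and on no TBI array, and TBI replicate 1 read -2.36 for Tlr2 against -0.96 and -1.18 for the other TBI arrays.

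Injury was compared with the Sham rats to ask what the blow added to anaesthesia and surgery. Tlr4 was higher in TBI by 1.84 on the log2 scale (SE 0.42, adjusted p = 0.0209, limma with Benjamini-Hochberg adjustment over all tested probes). No Sham array measured it. With this scaling, and the lowest signal well above background on each Sham array as a floor, the Tlr4 difference is at least 2.37-fold. Over the alternative settings listed below its log2 difference ran from 0.83 to 2.75. Tlr4 was the only member called, that is with an adjusted p under 0.05, 1 of 8, where 2.93% of all tested probes were called higher. The other 6 members measured in either group were all higher in TBI but did not pass: Tlr2 by 0.99 (SE 0.33, adjusted p = 0.0789), Myd88 by 0.82 (SE 0.28, adjusted p = 0.0863) and Tlr7 by 0.78 (SE 0.33, adjusted p = 0.15) in limma. Ly96 was higher by 0.70 (SE 0.34, adjusted p = 0.21), Tlr3 by 0.70 (SE 0.40, adjusted p = 0.297) and Tlr6 by 0.64 (SE 0.30, adjusted p = 0.196). The median of these 7 members was 0.78, against -0.03 for all tested probes, and 4 of 8 were higher at an unadjusted p under 0.05, where 9.8% of all probes were.

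All TBI arrays lay above all Sham arrays for Tlr2, Tlr3, Tlr4, Tlr7 and Myd88, 5 of 8 members, against 17.2% of all probes. Under quantile normalization, in which the signals of all arrays are forced to share quantiles, 2 members were called (Tlr4 by 1.5 and Myd88 by 0.85, adjusted p = 0.0243 and 0.0308 in limma), where 3.73% of all probes were called higher. The Tlr4 call did not hold without Sham replicate 1, Sham replicate 2, TBI replicate 2 or TBI replicate 3, with log2 differences from 1.52 to 2.15, in fits that called 0.239% to 1.34% of all probes higher. With the slide as a fixed term its difference was 2.75 (SE 0.71, adjusted p = 0.507, limma), and no slide held both TBI and Sham arrays.

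The count also rested on TBI replicate 1, the array with the lowest Tlr2, Tlr4, Tlr6, Tlr7 and Ly96 signal in its group. It was singled out by these values of the members, so the calls without it are a description and not support. Each other single omission in this comparison left 0 members called. Without TBI replicate 1, 4 members were called against Sham, where 6.79% of all probes were called higher: Tlr4 by 2.16 (SE 0.41, adjusted p = 0.00492), Tlr2 by 1.42 (SE 0.22, adjusted p = 0.00157), Ly96 by 1.07 (SE 0.28, adjusted p = 0.0224) and Tlr6 by 0.92 (SE 0.27, adjusted p = 0.0361) in limma.

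Against the unhandled Naive rats, 3 of 8 members were called higher in TBI, where 2.98% of all probes were. They were Tlr4 by 1.44 (SE 0.37, adjusted p = 0.0455), Tlr7 by 1.28 (SE 0.29, adjusted p = 0.0282) and Myd88 by 1.10 (SE 0.25, adjusted p = 0.0294) in limma. Ly96 (0.91, SE 0.30, adjusted p = 0.106), Tlr2 (0.75, SE 0.30, adjusted p = 0.171) and Tlr6 (0.65, SE 0.27, adjusted p = 0.186) did not pass. The other 2 members had no higher mean in TBI: Tlr3 had -3.92 against -3.88, and Tlr5, measured on 1 Naive array and on no TBI array, had -7.35 against -6.59. Thus 6 of 8 were higher. The median over the 8 members was 0.83, against 0.04 for all probes. Without TBI replicate 1, 6 members were called, these 3 with Tlr2, Tlr6 and Ly96, where 5.81% of all probes were called higher. None was called without Naive replicate 1, TBI replicate 2 or TBI replicate 3, where 0.807% to 1% of all probes were, and Tlr7 was called without Naive replicate 3, where 1.77% were.

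Naive replicate 3 shared a slide with the 3 TBI arrays. Within that slide Tlr4 was higher in TBI by 2.06 (SE 0.54, adjusted p = 0.341), Tlr7 by 1.06 (adjusted p = 0.671) and Myd88 by 1.14 (adjusted p = 0.457) in limma, in the same direction and without a call. No member was called between Sham and Naive, 0 of 8, where 8.08% of all probes were called in either direction, 0 at an unadjusted p under 0.05 (22.7% of all probes), and a lowest adjusted p of 0.263 in limma. The methods' t-test also called 0.

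**Figure D2:**
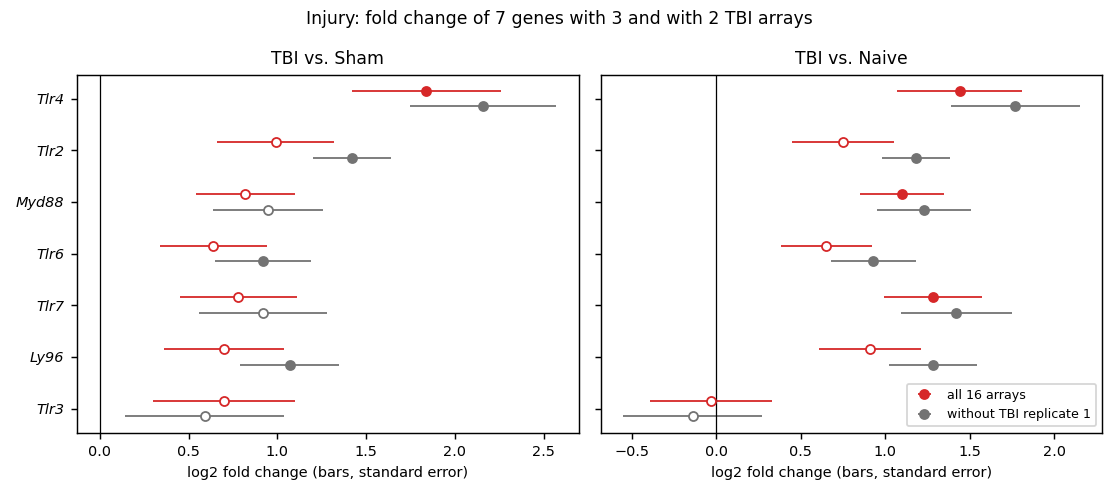
Log2 differences of TBI against Sham and against Naive for the 7 members measured in TBI, with bars of 1 SE, with all arrays (red) and without TBI replicate 1 (grey), and filled where called. With all arrays Tlr4 was called in both comparisons (1.84 and 1.44). Without TBI replicate 1, an array singled out by its low signal of members, the calls against Sham were Tlr2, Tlr4, Tlr6 and Ly96.

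The injured arrays also differed in markers of blood leukocytes, cells in which several of these receptors are abundant. The summed linear signal of 8 leukocyte markers, in multiples of the array's 75th percentile, was 0.13 to 0.153 in Naive and 0.31 to 0.468 in Sham. It was 0.665 on TBI replicate 1, 3.26 on TBI replicate 2 and 1.73 on TBI replicate 3. Tlr2, Tlr4 and Ly96 had this order on the TBI arrays, Tlr6 and Tlr7 were highest on TBI replicate 3, and Tlr3 was highest on TBI replicate 1. On the drug arrays it was 1.71 to 3.6. Of these markers 2 were above background in Naive, 3 to 4 in Sham, 4 to 5 in TBI and 6 to 7 on the drug arrays, while Mpo, of neutrophil granules, was above background on 0 arrays. Of all probes, 16282 to 18245 were above background on the arrays of the first session, and 20259 to 24984 on the drug arrays. S100a8, a protein of neutrophils and monocytes, was higher in TBI than in Sham by 3.77 (adjusted p = 0.00991, limma). It was above background on 11 of the 16 arrays, so the size of its difference can rest partly on background readings. Of the 7 leukocyte markers tested, 3 were called higher in TBI than in Sham, where 2.93% of all probes were.

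The summed signal of the 8 microglia markers moved less, from 8.76 to 10.1 in Naive, 9.21 to 12.8 in Sham, 10.3, 11.6 and 12.2 on TBI replicates 1, 2 and 3, the order of Tlr6 and Tlr7, and 11.2 to 15.1 on the drug arrays. Its members went in both directions in TBI against Sham: Itgam, the CD11b integrin, was higher by 1.40 (adjusted p = 0.0149), while the homeostatic genes P2ry12 (-1.41, adjusted p = 0.013) and Tmem119 (-2.17, adjusted p = 0.00925) were lower in limma. In TBI+PMI, TBI+JM6 and TBI+E33 the microglia markers had median differences from TBI of 0.38, 0.62 and 0.66. The 7 leukocyte markers tested had 1.81, 1.25 and 1.46, and all tested probes 0.79, 0.99 and 1.08. Under quantile normalization these were -0.12, -0.12 and -0.15 for microglia, and 0.11, 0.56 and 0.54 for leukocytes. The part of leukocyte entry in the receptor levels was not tested. In RNA from whole tissue, more cells of a type and more RNA per cell cannot be told apart.

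**Figure D3:**
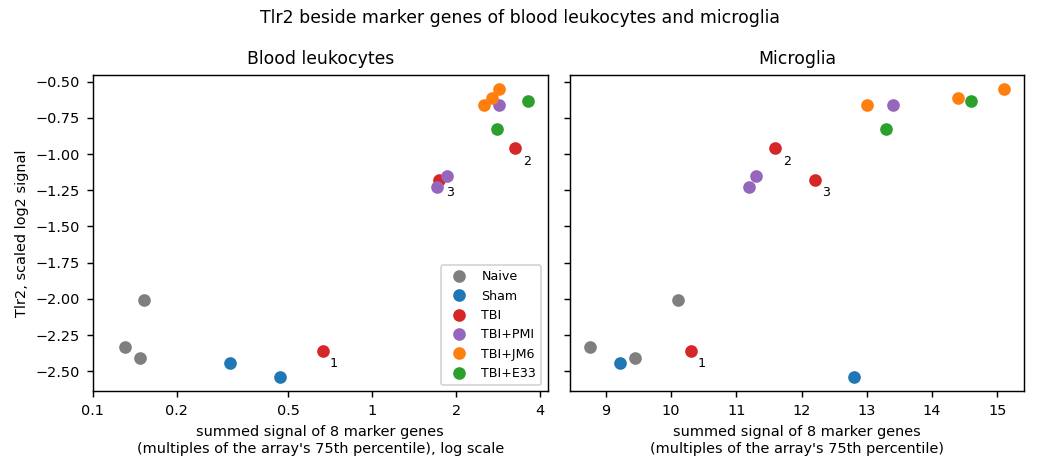
Scaled log2 signal of Tlr2 against the summed signal of 8 blood leukocyte markers (log axis) and of 8 microglia markers, in multiples of the array's 75th percentile, with 1 point an array and the TBI replicates numbered. TBI replicate 1 was low in Tlr2 (-2.36) and in leukocyte markers (0.665), and TBI replicate 2 was high in both (-0.96 and 3.26), and TBI replicate 1 also had the lowest microglia sum of the TBI arrays (10.3).

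The wider pathway was described with a list of 35 other genes, of which 31 had a probe and 28 were tested. In TBI against Sham 2 were called higher, where 2.93% of all probes were, and 1 lower, where 6.49% were. Cd14, which hands lipopolysaccharide to TLR4 and MD-2, was at -3.50 and -2.56 in Sham and at -0.60, 0.65 and 0.13 in TBI, with no overlap. Its difference was 3.09 (SE 0.65, adjusted p = 0.0155, limma), or 8.52-fold. Cd14 kept a high level on the drug arrays, from 0.19 to 2.39.

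Ticam2 (TRAM), the bridging adaptor between TLR4 and TRIF, was measured on 1 of 3 TBI arrays and on no Sham array, and was higher by 1.21 (SE 0.33, adjusted p = 0.0388, limma). The other TBI readings, -5.95 and -5.79, were not above background, so no lower bound is given. Under quantile normalization Ticam2 was not called (0.93, adjusted p = 0.105). Traf3, a ubiquitin ligase that carries the signal from TRIF to interferon genes, was lower, at -1.07, -1.51 and -1.51 in TBI against -0.79 and -0.46 in Sham (-0.73, SE 0.19, adjusted p = 0.0356, limma), and it too was not called under quantile normalization (-0.64, adjusted p = 0.0746). The median over the 27 measured genes was 0.26, and 18 of them were above 0.

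Against Naive, 4 genes of the list were called higher, where 2.98% of all probes were, and 1 lower, where 1.73% were. Cd14 was higher by 4.21 (adjusted p = 0.0043), the scavenger receptor Cd36 by 3.20 (adjusted p = 0.0256), Ly86 (MD-1, the partner of CD180) by 1.85 (adjusted p = 0.0156) and Ticam2 by 1.58 (adjusted p = 0.0135) in limma. Ticam2 was measured on no Naive array and on 1 TBI array, so its difference rests largely on background readings and no lower bound is given. Sarm1, a TIR protein of neurons, was lower by 0.80 on the log2 scale (adjusted p = 0.0225).

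**Figure D4:**
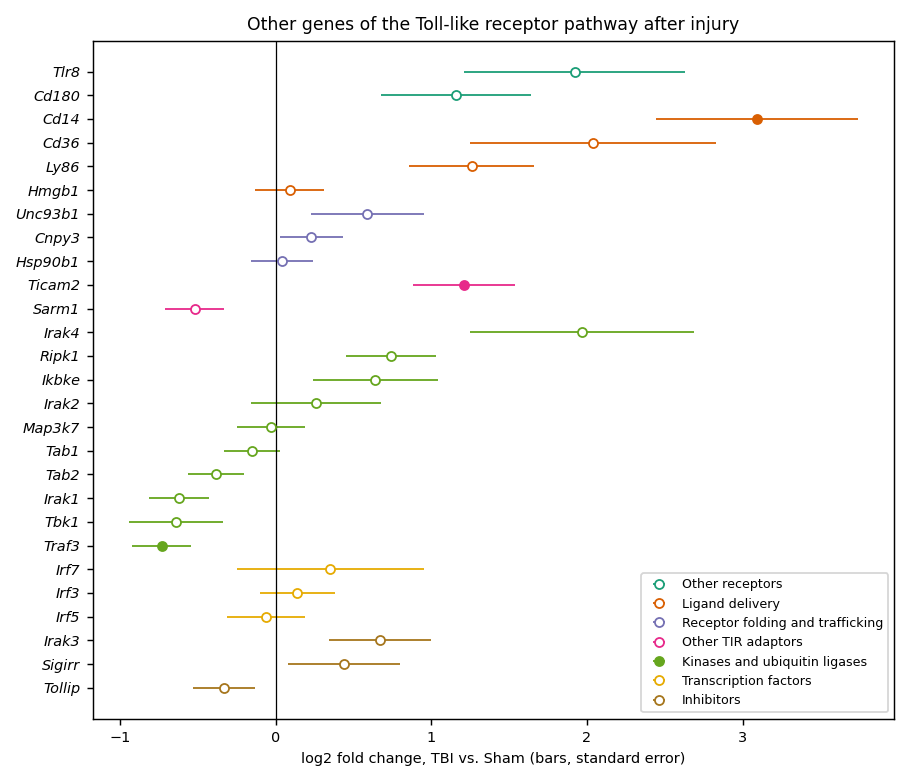
Log2 differences of TBI against Sham, with bars of 1 SE, for the 27 pathway genes measured in either group, by role in the pathway, and filled where called. Cd14 (3.09) and Ticam2 (1.21) were called higher and Traf3 (-0.73) lower, and 18 of the 27 genes lay above 0.

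The drug groups were compared with TBI alone to ask what each compound changed after the same injury. Here the scaling decided the reading, since 56.7% (TBI+PMI), 69.9% (TBI+JM6) and 70.2% (TBI+E33) of all probes were called higher, with medians over all probes of 0.79, 0.99 and 1.08. The members' medians were 0.74, 0.88 and 0.80. The called members were 3 of 8 in TBI+PMI, 6 in TBI+JM6 and 5 in TBI+E33, to be read against these shares. Under quantile normalization the medians over the members were -0.18, -0.07 and -0.16, and 1 member was called higher in each group, where 9.96%, 13.9% and 10.4% of all probes were. In the other direction 0, 1 and 0 members were called, where 9.21%, 13.3% and 10% of all probes were.

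Tlr5 was the member called higher under both scalings in all 3 drug groups. It passed the filter for testing only through these groups, where all 8 arrays measured it. Its p-values against TBI are therefore a description and not support. Its difference from TBI was 3.74 in TBI+PMI (SE 0.47, adjusted p = 6.43e-05), 3.67 in TBI+JM6 (SE 0.47, adjusted p = 3.82e-05) and 3.87 in TBI+E33 (SE 0.53, adjusted p = 7.07e-05) in limma. Because no TBI array measured Tlr5, these are at least 5.11-fold, 4.9-fold and 5.6-fold, before the median of all probes is taken off. The bounds hold only for this scaling and for a floor at the lowest signal well above background on each TBI array. The normexp differences given below were smaller. With the TBI signal below background taken at its value, the differences relative to the median of all probes were 2.95, 2.68 and 2.79, and under quantile normalization 2.22, 1.91 and 1.92 (adjusted p = 0.00364, 0.00516 and 0.011).

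With normexp background correction, which draws dim signals together, the Tlr5 differences were 0.71, 1.43 and 1.11, and none was called (adjusted p = 0.665, 0.0935 and 0.311 in limma). Its detection pattern, above background on all 8 drug arrays and on none of the 5 TBI and Sham arrays, was shared by 1129 of 30367 probes (3.72%). The part of the scanning session in this difference cannot be told apart from the drugs, which were all scanned together. Among other markers, the summed signal of 4 astrocyte markers was 20.7 to 21.8 in TBI and 27.1 to 48.6 in the drug groups. The median differences of these markers from TBI were 0.32 (TBI+PMI), 0.52 (TBI+JM6) and 0.65 (TBI+E33). All tested probes had 0.79, 0.99 and 1.08. Under quantile normalization the astrocyte medians were -0.20, -0.14 and -0.03.

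None of the other calls was made under quantile normalization. In TBI+PMI, Tlr7 (0.73, SE 0.29, adjusted p = 0.0478) and Ly96 (0.80, SE 0.30, adjusted p = 0.0396) were called in limma, and were -0.20 and -0.04 under quantile normalization. In TBI+JM6, Tlr4 was higher by 1.49 (SE 0.37, adjusted p = 0.00364), Tlr2 by 0.90 (SE 0.30, adjusted p = 0.017) and Ly96 by 0.90 (SE 0.30, adjusted p = 0.0189) in limma. Tlr7 was higher there by 0.86 (SE 0.29, adjusted p = 0.0192) and Myd88 by 0.82 (SE 0.25, adjusted p = 0.0121). Under quantile normalization these 5 lay between -0.28 and 0.12. In TBI+E33, Tlr4 (1.51, SE 0.42, adjusted p = 0.00669), Tlr7 (1.24, SE 0.33, adjusted p = 0.00506), Ly96 (0.83, SE 0.34, adjusted p = 0.0438) and Myd88 (0.78, SE 0.28, adjusted p = 0.0269) were called in limma, and lay between -0.29 and 0.07 under quantile normalization. The other Ly96 probe was higher than TBI by 0.12 (TBI+PMI), 0.34 (TBI+JM6) and 0.30 (TBI+E33), smaller than for the brighter probe.

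Tlr3 stood below the other members in TBI+JM6. Its difference from TBI was -0.05 (SE 0.36, adjusted p = 0.906), or -1.04 relative to the median of all probes, and under quantile normalization it was called lower (-1.54, adjusted p = 0.0162 in limma). The other Tlr3 probe read -1.98 under that scaling (adjusted p = 0.00479). No member was called lower than TBI under both scalings in any drug group.

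Without TBI replicate 1, the calls against TBI were Tlr5 in TBI+PMI, Tlr4, Tlr5 and Myd88 in TBI+JM6, and Tlr4, Tlr5 and Tlr7 in TBI+E33, where 50.7%, 63% and 64.3% of all probes were called higher. Without TBI replicate 2, 5 members were called in TBI+PMI (56.7% of all probes). In that group 1 was called without PMI replicate 1 (47.4%) or PMI replicate 2 (44.6%). In TBI+E33, 3 members were called without E33 replicate 2 (49.7%). Tlr5 was called under every such omission.

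**Figure D5:**
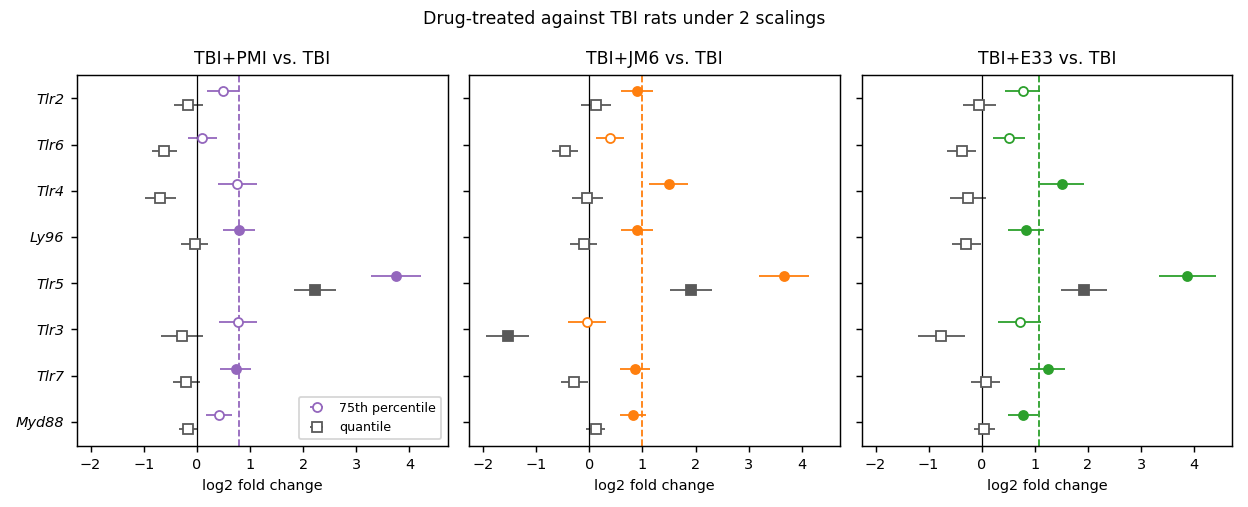
Log2 differences of each drug group from TBI for the members, with the 75th-percentile scaling (circles) and with quantile normalization (grey squares), bars of 1 SE, filled where called, with a dashed line at the median of all probes under the 75th-percentile scaling (0.79, 0.99 and 1.08). Tlr5 lay above the dashed line in all 3 groups, and Tlr3 in TBI+JM6 lay farthest below it, at -0.05.

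The 3 drug groups were then compared with each other, within the later session. No member was called in any of the 3 pairs, where 0.0131% (TBI+JM6 vs. TBI+PMI), 0.11% (TBI+E33 vs. TBI+PMI) and 0.0175% (TBI+E33 vs. TBI+JM6) of all probes were called in either direction. At an unadjusted p under 0.05 there was 1 of 8 members in the first pair, where 8.84% of all probes were, and it was Tlr3, lower in TBI+JM6 by 0.82 on the log2 scale (SE 0.36, adjusted p = 0.543, limma), and 0 in the other pairs. The methods' t-test had 1 in TBI+E33 vs. TBI+JM6. A missed threshold does not show that the compounds gave the same levels.

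In the wider pathway list, 10, 15 and 18 of 28 genes were called higher than TBI in TBI+PMI, TBI+JM6 and TBI+E33 and 0 lower, against the shares of 56.7%, 69.9% and 70.2% given above. Under quantile normalization 0, 2 and 0 were called higher, where 9.96%, 13.9% and 10.4% of all probes were, and 1, 4 and 2 lower, where 9.21%, 13.3% and 10% were. Relative to the median of all probes, the highest measured in both groups in TBI+PMI were Cd180, a regulator of TLR4 on B cells and myeloid cells (1.45), and Cd36 (1.09), and the lowest were Unc93b1, which carries the endosomal receptors (-0.86), the chaperone Cnpy3 (-0.59) and Ikbke, a kinase of the interferon arm (-0.56). Cd180 was above background on 1 of 3 TBI arrays, at -5.67, and read -7.93 and -7.14 on the others. Its difference therefore rests largely on background readings, and it passed the filter only through the drug groups.

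In TBI+JM6 the highest were Cd36 (1.63) and Tlr8 (1.46), and the lowest Ticam2 (-0.76), Cnpy3 (-0.76) and Hmgb1, a nuclear protein that acts as a danger signal once released (-0.75). Tlr8 was above background on 2 of 3 TBI arrays and Ticam2 on 1. Tlr8 passed the filter only through TBI+JM6, and Ticam2 only through TBI+JM6 and TBI+E33. In TBI+E33 the highest were Cd180 (1.60, with the limit given above) and Cd36 (1.12), against Unc93b1 (-0.93), Hmgb1 (-0.89) and Ripk1 (-0.82). Tlr12, a rodent receptor for protozoan profilin, also stood among the 3 highest of each group by its signal, but no TBI array measured it, so that it has no rank. It has only bounds over TBI of at least 2.29-fold in TBI+PMI and 2.59-fold in TBI+JM6, before the median is taken off, and it passed the filter only through these groups. In TBI+E33, where replicate 1 was not above background, no bound is given. The direction of Ticam2 depended on the scaling. With the 75th-percentile scaling it was higher than TBI by 0.39, 0.23 and 0.86, and called in TBI+E33 (adjusted p = 0.0325, limma). It was called lower under quantile normalization in each drug group, at -1.22, -1.65 and -1.27 (adjusted p = 0.0178, 0.00319 and 0.023 in limma). Because Ticam2 passed the filter only through drug groups, its p-values against TBI are a description and not support.

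The genes most like a member were sought by the lower of the Pearson correlations over the 8 Naive, Sham and TBI arrays and over the 8 drug arrays, among 19251 genes. The arrays share sessions and slides, and the correlations are descriptions. Nearest to Tlr2 were Dok3 (0.979 and 0.943), the leukocyte tetraspanin Cd53 (0.933 and 0.985) and the aminopeptidase Anpep (0.983 and 0.927). Nearest to Tlr6 were Il2rg, the shared chain of several interleukin receptors (0.963 and 0.947), Cdk2 (0.931 and 0.923) and Abcb4 (0.938 and 0.922).

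Nearest to Myd88 were Shisa5 (0.959 and 0.938), the mitochondrial protein Tspo (0.955 and 0.937) and Ncf4, a subunit of the phagocyte NADPH oxidase (0.936 and 0.95). Nearest to Ly96 were Erlin1 (0.895 and 0.936), a transcript without a symbol (0.895 and 0.908) and Mfsd1 (0.874 and 0.887). Tlr3 had a separate set, RGD1305713 (0.905 and 0.871), a probe without a symbol (0.846 and 0.855) and Mylk, the myosin light chain kinase (0.909 and 0.834).

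The promoters of Tlr2 and Tlr4 are shown because Tlr4 was called after injury and Tlr2 was called once TBI replicate 1 was left out, as 250 bases before the start of the gene in the RefSeq table of GRCr8. RefSeq promoters were found for 9 of the 10 members. In the Tlr2 promoter (GRCr8 chr2:171504558-171504807, minus strand) the capitals mark matches to the kappa B consensus, the motif of NF-kappa B, of which there were 3 on the strands searched, including a pair that overlaps. The nearest began 42 bases before the start. It was found in 1 of 9 members, and in 6.33% of 33469 promoters.
Tlr2 promoter: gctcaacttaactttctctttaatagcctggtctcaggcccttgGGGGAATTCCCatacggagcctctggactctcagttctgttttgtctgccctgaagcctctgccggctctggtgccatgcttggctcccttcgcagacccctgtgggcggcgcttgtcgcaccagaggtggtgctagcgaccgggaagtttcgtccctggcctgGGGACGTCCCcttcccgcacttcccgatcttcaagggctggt
In the Tlr4 promoter (chr5:85160997-85161246, plus strand) the capitals mark GAGGAA, the core bound by the myeloid factor PU.1, which reads TTCCTC on the printed strand. It occurred at 67 and 55 bases before the start. Of the members 5 of 9 held it (Tlr3, Tlr4, Tlr6, Tlr7 and Tlr9), and 23.3% of all promoters did.
Tlr4 promoter: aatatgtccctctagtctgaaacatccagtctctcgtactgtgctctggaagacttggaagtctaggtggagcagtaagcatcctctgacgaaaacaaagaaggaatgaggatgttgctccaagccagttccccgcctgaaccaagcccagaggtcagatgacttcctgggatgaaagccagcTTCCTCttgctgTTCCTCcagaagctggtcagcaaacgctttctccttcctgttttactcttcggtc
GAAANNGAA, part of the motif of interferon regulatory factors, was in 1 of 9 members, Myd88, at 16 bases before the start, and in 8.12% of all promoters. Both strands were searched, the motifs were chosen with the sequences in view, and a match is a description and not a site.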

How the data were processed

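Hippocampal RNA of 16 rats was hybridised to single-colour Agilent rat arrays of 44K format. The labels name 2 amplification kits without saying which rat had which. The authors deposited the Feature Extraction 9.5.3.1 output, whose processed signal is an intensity after background subtraction, with probe positions on rn4. They also deposited a value table of ratio values to each array's 75th percentile, per the methods, whose columns share a distribution. On the log2 scale it correlated with the scanner values at 0.981 to 0.999 over probes, and it was used as an alternative.

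Spots of a probe were averaged, and control spots left out (42877 other spots, 30367 probes). The log2 processed signal was scaled to the 75th percentile of the probes well above background. Probes that passed this background flag throughout 1 group or more were tested with limma 3.58.1 (R 4.3.3, statmod 1.5.0) in 1 fit over 16 arrays of 6 groups, two-sided, with Benjamini-Hochberg adjustment, and called at an adjusted p under 0.05. A gene took its brightest probe. The fit was tested on simulated data. Fold bounds used the lowest signal well above background on an array. A probe without the flag can read above that signal, as Tlr7 did on Naive replicate 1 (-5.48 against -6.08). The bounds therefore hold for this floor and not for the detection limit of each probe. The methods give 3 rats a group, and 2 Sham and 2 E33 arrays were analysed here, each from a separate rat, so p-values rest on the spread between rats. The number of arrays limits the precision.

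The members, pathway genes and marker lists were chosen with earlier results of these data known. All members were named. From the pathway list, the genes called in TBI vs. Sham and the 3 highest and 3 lowest in each drug group relative to the median were named, with no rank where no TBI array measured the gene, and a bound only where every array of the brighter group did, with the 3 genes most like each member whose probe was above background on all arrays. Those called against Naive, the named markers and Ticam2 in the drug groups were added after their values were seen. The alternatives were normexp (offset 50), quantile normalization, other percentiles and filters, the authors' values, the methods' t-test with 1.2-fold, smaller fits, slide and replicate blocks, the mean of probes, a GC trend, and leaving out each array. Replicate numbers did not pair the samples. Figures were drawn with matplotlib 3.10.9 in Python 3.11.15.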

Additional observations from a re-analysis of the deposited data

How the results depend on the processing

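The counts of called members depended on scaling, background correction and single arrays, and the cause was not tested. Apart from quantile normalization and omitted arrays, the share of all probes called under each setting is not given here. Those counts therefore cannot be set against a background share and are a description. With normexp background correction, 0 members were called in TBI vs. Sham, TBI vs. Naive, TBI+PMI vs. TBI and TBI+E33 vs. TBI, and 2 in TBI+JM6 vs. TBI. With quantile normalization, and likewise with the authors' values, 2 were called in TBI vs. Sham, 1 in TBI+PMI vs. TBI, 2 in TBI+JM6 vs. TBI and 1 in TBI+E33 vs. TBI. With the 75th percentile over all probes, TBI vs. Sham had 3 and each drug group 1. Without a filter on dim probes TBI+PMI vs. TBI had 1. With only probes above background on all 16 arrays, which leaves 5 members, TBI vs. Naive had 1, TBI+PMI vs. TBI 1, TBI+JM6 vs. TBI 3 and TBI+E33 vs. TBI 3. The methods' t-test, unadjusted with 1.2-fold, had 3 in TBI+JM6 vs. TBI and 1 in TBI+E33 vs. TBI+JM6, and after adjustment 0 in TBI vs. Sham and in TBI vs. Naive, 1 in TBI+PMI vs. TBI, 2 in TBI+JM6 vs. TBI and 2 in TBI+E33 vs. TBI. Fits on the compared groups alone had 0 in TBI vs. Sham and 0 in TBI vs. Naive, as had the slide as a fixed block. As a random block (correlation -0.087) it gave 3 in TBI vs. Sham. Leaving out single arrays gave 0 to 4 in TBI vs. Sham, 0 to 6 in TBI vs. Naive, 1 to 5, 3 to 6 and 3 to 6 in the drug groups, in that order, and 0 in Sham vs. Naive and between drugs. Among the members called in the drug groups, the direction reversed with quantile normalization for Tlr7 (-0.20) and Ly96 (-0.04) in TBI+PMI, Tlr4 (-0.04), Tlr7 (-0.28) and Ly96 (-0.11) in TBI+JM6, and Tlr4 (-0.26) and Ly96 (-0.29) in TBI+E33. The authors' values gave Tlr7 -0.16 and Ly96 -0.04, then Tlr4 -0.10, Tlr7 -0.24 and Ly96 -0.13, then Tlr4 -0.31 and Ly96 -0.26. With quantile normalization the direction against TBI also reversed for members without a call. In TBI+PMI these were Tlr2 (-0.16), Tlr3 (-0.28), Tlr4 (-0.69), Tlr6 (-0.61) and Myd88 (-0.16). They were Tlr6 (-0.46) in TBI+JM6, and Tlr2 (-0.05), Tlr3 (-0.76) and Tlr6 (-0.38) in TBI+E33. Among the called members and Tlr3 in TBI+JM6, normexp gave Tlr7 -0.03 in TBI+PMI and Tlr3 0.38 in TBI+JM6, the 75th percentile over all probes Myd88 -0.05 and Ly96 0 in TBI+E33, and the GC trend Tlr3 0.01 in TBI+JM6, where leaving out single arrays gave Tlr3 -0.19 to 0.14. With the replicate number as a block no count of members moved by over 1.5 times (TBI+E33 vs. TBI had 6), and the numbers do not pair the samples: the 36 correlations of their deviations ran from -0.32 to 0.21, with 10 over 0.1. For the pathway list, TBI vs. Sham had 0 with normexp, 1 with quantile normalization, 5 with the mean of probes, 6 with the random block and 0 to 11 when single arrays were left out, and TBI vs. Naive 1 with normexp and 2 to 10 when single arrays were left out. Dim signal limits Tlr4, Tlr5 and Tlr9.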
